A study of Mus musculus with 10 samples.

Results

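The transcriptome of livers in which the histone H3.3 genes were deleted in hepatocytes was compared with that of wild-type livers given the same virus. A gene entered the comparison when its counts over the 10 livers of the series summed to 10 or more, which left 22449 of 55421 gene identifiers in the count table. The KO group held 4 male mice with floxed H3f3a and H3f3b (H3f3afl/fl, H3f3bfl/fl) that received AAV8 Tbg-Cre, an adeno-associated virus that carries Cre recombinase under Tbg, a promoter active in hepatocytes. The WT Cre group held 3 male wild-type mice that received AAV8 Tbg-Cre. The labels give no strain. A further 3 male floxed mice were given AAV8 Tbg-MCS, which lacks Cre, and these MCS livers entered the fit and are given beside the other groups where they bear on a value. Virus was given by retro-orbital injection at 6 months of age and livers were collected after 3 weeks. In the labels the genotype of floxed animals is HIRA fl/fl, while titles and series text name H3f3a and H3f3b, and the groups follow the titles. The control columns of the table carry only numbers, and they were assigned by the library number in the labels, so that every WT Cre value rests on that match.

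Nucleosomes of dividing cells are built mainly with the replication-coupled histones H3.1 and H3.2, whose genes are transcribed in S phase. H3.3 differs from them by a few residues, is made throughout the cell cycle, and is placed at active genes by the HIRA complex and at repeats and telomeres by DAXX and ATRX. Adult hepatocytes rarely divide, and H3.3 therefore makes up much of their H3 over time. Cre in hepatocytes removes H3.3 genes only where the virus acts, and a whole liver also holds endothelial, stellate, biliary and immune cells, whose transcripts are part of each library. In such bulk samples, fewer cells of a type and less RNA per cell cannot be told apart.

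Total counts per library ran from 20862860 to 26096141 in the 6 control livers and from 14998426 to 23619487 in the KO livers. KO 1 had the shallowest library and stood apart from the other KO livers. On the first principal component, which held 74.2% of the variance of the 1000 most variable genes, KO 1 lay at 22.1 while KO 2 to 4 lay at 64.8 to 66.5 and the controls at -40.9 to -33.3. Values of the leading genes are therefore given per liver. Counts of called genes without 1 liver, KO 1 or another, are given where they move by over 1.5 times. Levels are given as CPM (counts scaled to a common library size) with factors from TMM, the trimmed mean of M values of edgeR. Alb, the serum albumin of hepatocytes, took 7.44% ± 0.433 (SD, n = 4) of the counts in KO livers and 8.85% ± 0.272 (SD, n = 3) in WT Cre livers, with every KO liver below every WT Cre liver (exact permutation p = 0.0286, two-sided, the smallest p that 35 splits allow). All libraries were thus rich in the defining transcript of the labelled tissue.

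H3f3a and H3f3b fell in KO livers and neither reached 0. H3f3a (chr1:180800832-180813943, GENCODE M21, mm10) was at 59.9, 63.5 and 61.3 CPM in the WT Cre livers and at 16, 18.7, 16 and 19 CPM in the KO livers, so that 28.3% of the WT Cre mean remained (log2 fold change -1.82 ± 0.10 (SE), edgeR adjusted p = 5.48e-07). H3f3b (chr11:116021912-116027962) was at 158, 167 and 142 CPM and at 39.8, 53.7, 51.8 and 56.7 CPM, that is 32.5% of the WT Cre mean (-1.62 ± 0.16 (SE), edgeR adjusted p = 3.12e-05). For both genes the exact permutation p was 0.0286, the smallest the design allows, and the MCS livers lay with the WT Cre livers, at 63.7, 63.4 and 61 CPM for H3f3a and 136, 153 and 204 CPM for H3f3b. KO 1, the liver that stood apart, had as little H3f3a and less H3f3b than the other KO livers. The residual transcript was not assigned to a cell type.

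Hira, the chaperone subunit named in the genotype field, was at 6.25, 7.76 and 7.38 CPM in the WT Cre livers and at 6.26, 6.68, 6.62 and 6.5 CPM in the KO livers, and it did not pass the test (-0.13 ± 0.16 (SE), edgeR adjusted p = 0.599). Of the 16 H3.3 genes and H3 chaperones examined, 1 rose by the DEG rule (2 without KO 1) and 2 fell, against 10.6% and 5.33% of all genes. The 2 that fell were the deleted H3f3a and H3f3b. The 1 that rose was Asf1b, which hands H3-H4 dimers to the replication-coupled CAF-1 and to HIRA. Asf1b was at 0.709, 0.52 and 0.595 CPM in WT Cre and 1.56, 2.14, 2.28 and 1.91 CPM in KO livers (1.69 ± 0.30 (SE), edgeR adjusted p = 0.0016). Replication-dependent histone mRNAs mostly lack the poly(A) tail by which these libraries were made, so that their genes were measured only in part. Of 30 of these tested, 3 rose and 2 fell, against 10.6% and 5.33% of all genes, and their median log2 fold change was 0.27. With 1 liver left out, the count of higher ones was 1 without WT Cre 1, WT Cre 2 or KO 3, and of lower ones 1 without WT Cre 2, WT Cre 3 or KO 2. Hist1h4h, which codes for histone H4, rose, and it was at 0.792, 0.694 and 1.23 CPM in WT Cre and 1.76, 2.21, 2.65 and 2.49 CPM in KO livers (edgeR adjusted p = 0.00389). Pcgf1, a subunit of the Polycomb complexes that place repressive histone marks, lay at the fold limit at -1.01 and lost its call in 11 of 21 alternative settings, among them DESeq2 and the fits without WT Cre 2, KO 2 or KO 4 (log2 fold change -0.96 to -0.89, edgeR adjusted p of 0.0101 to 0.0262).

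**Figure D1:**
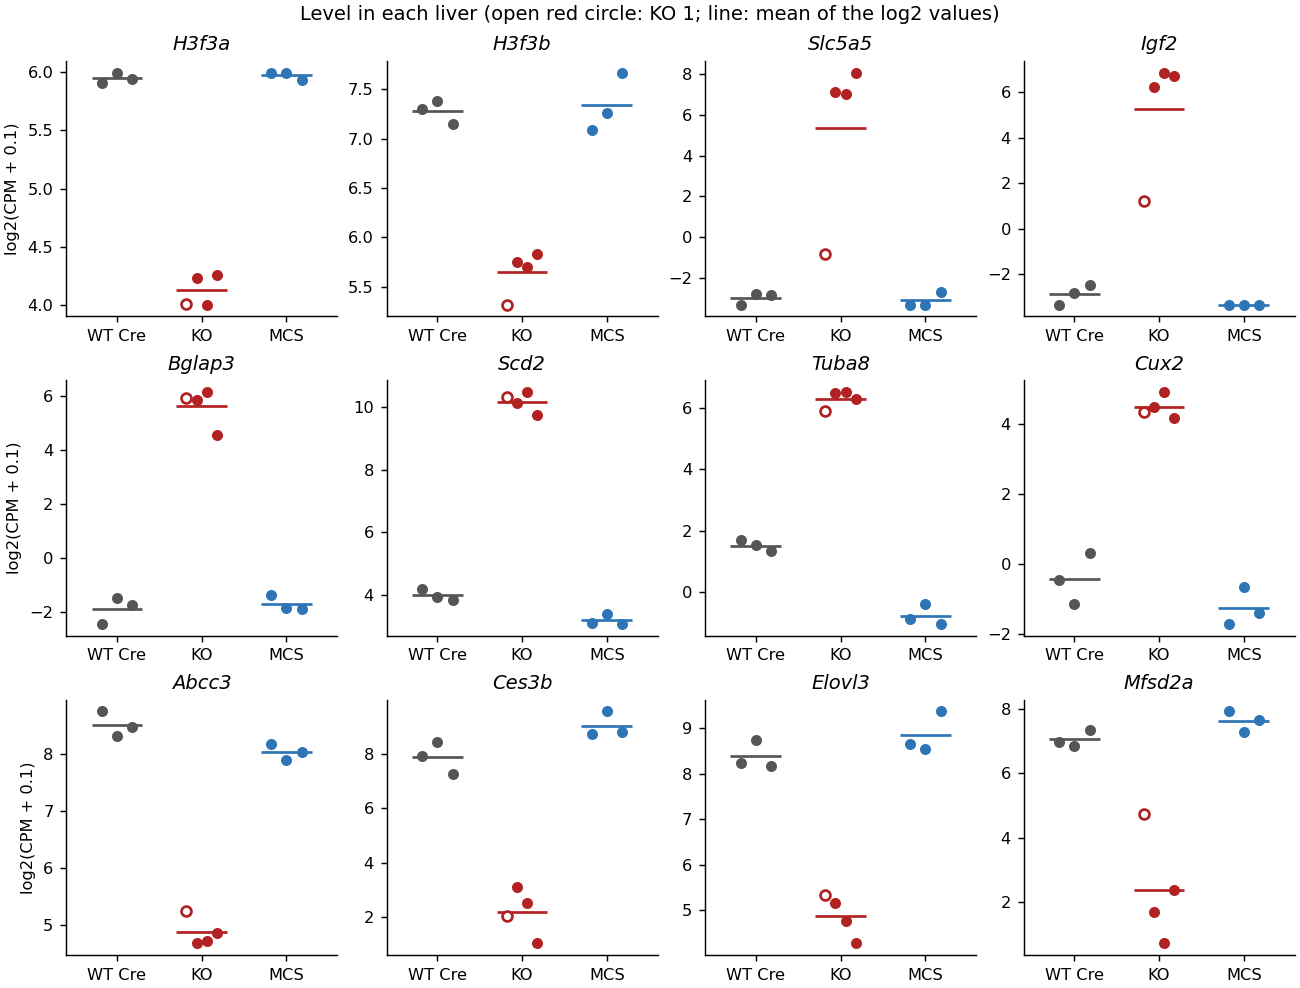
Level of 12 named genes in each liver as log2(CPM + 0.1), with WT Cre livers in grey, KO livers in red and MCS livers in blue; each point is 1 liver, the open circle is KO 1 and the line is the mean of the log2 values. H3f3a and H3f3b are low in all 4 KO livers, and KO 1 lies closest to the control livers for Slc5a5 and apart from KO 2 to 4 for Igf2 and Mfsd2a, but with them for Scd2, Tuba8, Cux2, Abcc3, Ces3b and Elovl3.

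To ask how many genes differed with genotype under the same virus, KO was set against WT Cre in an edgeR quasi-likelihood fit of all 10 livers. Differentially expressed genes (DEGs, adjusted p under 0.05 and absolute log2 fold change over 1) numbered 3566, or 15.9% of the genes tested. Of these, 2369 (10.6%) were higher and 1197 (5.33%) lower in KO livers. By adjusted p alone the 2 directions were closer, with 3444 genes higher (15.3%) and 2939 lower (13.1%). All KO livers lay above all WT Cre livers for 3912 genes (17.4%) and below them for 4161 (18.5%). The 2 control groups, which differ in genotype and in Cre, differed by the same DEG rule in 144 genes (0.641%). Over all genes tested the median log2 fold change was 0.02. KO 1 was the least shifted KO liver for 1721 of the 2369 higher DEGs (72.6%) and for 713 of the 1197 lower DEGs (59.6%). It did not lie beyond the WT Cre range for 309 higher and 36 lower DEGs. Without KO 1 there were 4367 DEGs, 2795 higher and 1572 lower, and 3452 of the 3566 calls held.

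**Figure D2:**
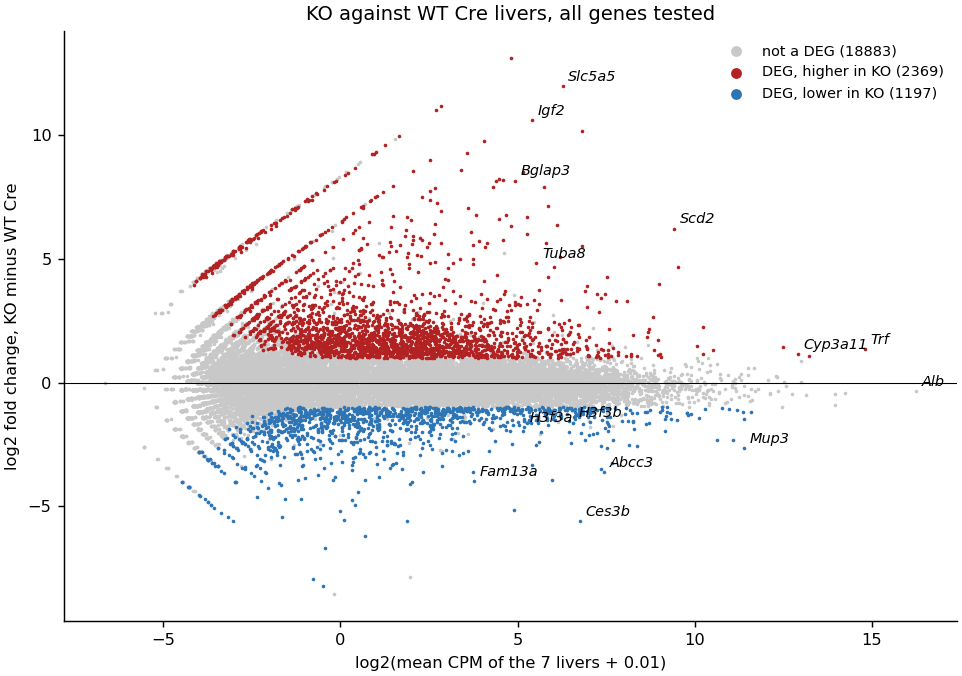
Log2 fold change of KO against WT Cre livers for each of the 22449 genes tested (vertical axis) against the log2 of its mean CPM over the 7 livers plus 0.01 (horizontal axis), with 2369 higher DEGs in red, 1197 lower DEGs in blue and other genes in grey. Higher DEGs spread over low levels and also reach high ones, as Trf does, and lower DEGs such as Mup3 and Abcc3 reach high levels too. On the slanted lines at the left lie genes with few or no counts in one group, whose fitted fold changes depend on the prior count.

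The direction of the calls changed with the level of the gene. Genes were sorted into deciles by mean CPM in the MCS livers, which are in neither arm of the contrast. In the highest decile (over 62.5 CPM) 2.49% of genes rose and 7.26% fell by the DEG rule. In the fifth decile (median 1.22 CPM) 19.9% rose and 9.71% fell, and in the lowest (median 0.0335 CPM) 16.4% rose and 0.49% fell. A gene near 0 counts cannot show a fall, so the low deciles are limited to one direction by depth. A gene of the lowest decile also needed counts in KO or WT Cre livers to reach the 10 counts of the filter, so that its percentages are in part set by that filter. By adjusted p alone, 28.5% of the highest decile were lower and 9.67% higher in KO livers, with a median log2 fold change of -0.17.

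**Figure D3:**
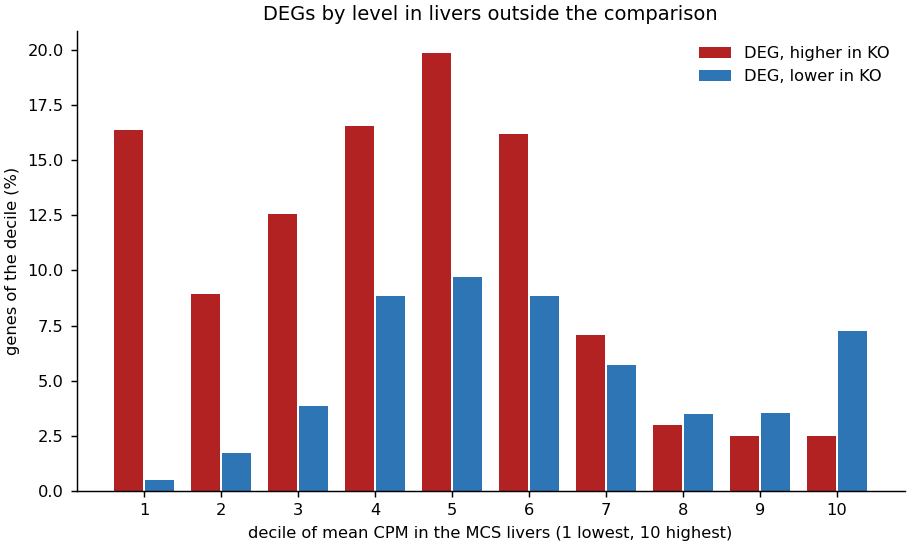
Percentage of genes in each decile of MCS liver level that were DEGs higher in KO (red bars) or lower in KO (blue bars); each decile holds about 2245 genes. The higher DEGs exceed the lower ones in deciles 1 to 7, and in the highest decile 7.26% fell against 2.49% that rose.

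The kinds of gene also differed. Of 15297 protein-coding genes, 1935 rose (12.6%) and 704 fell (4.6%), against 10.6% and 5.33% of all genes tested. Pseudogenes, which can share reads with their parent genes, had 76 of 3213 higher (2.37%) and 135 lower (4.2%), and antisense genes had 60 higher (5.58%) and 106 lower (9.86%) of 1075. Leaving out 1 liver gave 49 without WT Cre 1 for higher pseudogenes, 88 without WT Cre 1, 86 without WT Cre 2 and 85 without WT Cre 3 for lower ones, and 34 without WT Cre 2 or WT Cre 3 for higher antisense genes. Long intergenic non-coding RNAs had 108 higher (11.8%) and 116 lower (12.6%) of 918, and genes annotated as processed transcripts 30 higher (7.79%) and 48 lower (12.5%) of 385. These 2 types were not counted with 1 liver left out. Non-coding RNAs that start from a bidirectional promoter, facing away from a neighbouring gene, had 2 higher (1.82%) and 19 lower (17.3%) DEGs among 110, and their median log2 fold change was -0.75. The 2 higher ones became 1 without KO 4 and 0 without WT Cre 1, WT Cre 2, WT Cre 3, KO 2 or KO 3. Their summed level was 199, 216 and 207 CPM in the WT Cre livers and 174, 126, 135 and 115 CPM in the KO livers, so that the groups did not overlap. The library kit keeps strand, but whether the counting used it is not given in the sources used here, so that reads of a non-coding gene and of an overlapping partner may not be separated.

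Protein-coding DEGs with the groups apart and at least 10 CPM in the higher group were ranked by fold change. Such a ranking by itself favours genes with few WT Cre counts, and the rises were headed by genes that wild-type livers barely used. Slc5a5 (chr8:70882889-70892757), the sodium-iodide symporter that concentrates iodide in the thyroid, had 2 counts over the 3 WT Cre libraries. In the KO livers it was at 0.456, 141, 130.5 and 269 CPM, so that KO 1 lacked the high level of the other livers. The KO to WT Cre ratio of counts, corrected for library size, was 5471 (95% exact interval 1514 to 45178), which covers counting error only. Igf2 (chr7:142650766-142666816), the fetal insulin-like growth factor that adult mouse liver switches off, had 3 counts in all WT Cre libraries and was at 2.22, 73.5, 115 and 105 CPM in KO livers, a ratio of 1957 (95% exact interval 669 to 9490.5). The antisense transcript Igf2os at the same locus had no count in any WT Cre library and 1.24, 12.4, 16.4 and 15.5 CPM in KO livers, which makes it at least 91.2-fold higher when each WT Cre library is set at a floor of 3 counts, and reads of the pair may not be separated. Both Igf2 and Igf2os were lower in KO 1 than in any other KO liver. Slc5a5 and Igf2 passed in edgeR (adjusted p of 0.00884 and 0.0151), and they and Igf2os were lost in the voom fit. Without WT Cre 1, WT Cre 2 or WT Cre 3, Igf2 no longer passed (edgeR adjusted p of 0.0577 to 0.0586). Igf2os lost its call without WT Cre 1, WT Cre 2, WT Cre 3, KO 2, KO 3 or KO 4 (edgeR adjusted p of 0.0507 to 0.1).

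The other protein-coding genes at the top included several known mainly from other organs. Cela2a, a pancreatic elastase, was at 0.292, 0.173 and 0.0397 CPM in WT Cre livers and at 0.326, 83.5, 59.4 and 105 CPM in KO livers. S100g, the intestinal calcium-binding protein calbindin-D9k, was at 0, 0.217 and 0.198 CPM and at 0.521, 23.4, 63.1 and 50.6 CPM, and Acsm2, a medium-chain acyl-CoA synthetase of the kidney, was at 0.0834, 0.173 and 0.0397 CPM and at 0.261, 18.1, 21.4 and 10.1 CPM. In these 3 genes KO 1 lay close to the WT Cre range, while KO 2 to 4 were far above it, and the calls by edgeR (adjusted p of 0.0109, 0.0102 and 0.00889) were lost in the voom fit. Bglap3, a relative of the bone protein osteocalcin, behaved differently, at 0.0834, 0.26 and 0.198 CPM in WT Cre and 60.7, 57.9, 70.6 and 23.4 CPM in KO livers, and here KO 1 was among the high livers (8.16 ± 0.53 (SE), edgeR adjusted p = 1.14e-05). Cfap53, a protein of cilia, was likewise high in all 4 KO livers at 20.8, 12.1, 11.9 and 29 CPM, against 3 counts over the WT Cre libraries. Fam181b had 3 counts over the WT Cre libraries and reached 15.6, 7.08, 17.4 and 4.28 CPM in KO livers. Radil, which binds the small GTPase Rap1, had 3 counts and reached 4.24, 15.4, 18 and 2.45 CPM. Gm15287, a non-coding gene, was at 14.8, 23.4, 21.9 and 23 CPM in KO livers and had 2 counts in WT Cre livers.

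Larger transcript pools also rose. Scd2 (chr19:44293674-44306864), a stearoyl-CoA desaturase that adult liver expresses little in favour of its relative Scd1, was at 18, 15.2 and 14.2 CPM in WT Cre livers and 1297, 1133, 1437 and 867 CPM in KO livers (6.23 ± 0.22 (SE), edgeR adjusted p = 1.03e-08), a mean 74.9-fold higher in all 4 livers alike. Tuba8, an alpha-tubulin, was at 3.13, 2.78 and 2.42 CPM in WT Cre livers and 58.8, 89.4, 90.5 and 77.2 CPM in KO livers (4.83 ± 0.20 (SE), edgeR adjusted p = 3.87e-08). Tuba8 was also higher in WT Cre than in MCS livers, where it was at 0.448, 0.67 and 0.391 CPM (2.44, edgeR adjusted p = 0.00115). Slc39a4, a zinc importer, rose from 24.1 to 199 CPM (3.04 ± 0.17 (SE), edgeR adjusted p = 5.57e-07), and Cdh1, the epithelial cadherin, rose from 34.5 to 249.8 CPM with KO 1 at 92.3 CPM, between the WT Cre livers and the other KO livers (edgeR adjusted p = 0.00188). Zfp13, a zinc finger gene, was at 0.333, 0.694 and 0.516 CPM in WT Cre livers and 4.1, 4.11, 4.38 and 3.33 CPM in KO livers (edgeR adjusted p = 3.3e-05).

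Under the same limits, the lowest fold changes included genes of hepatocyte metabolism and transport. Ces3b (chr8:105083753-105093929), a liver carboxylesterase, was at 240.3, 346 and 154 CPM in WT Cre livers and 4.04, 8.62, 5.56 and 1.95 CPM in KO livers, a 48.9-fold lower mean (-5.60 ± 0.51 (SE), edgeR adjusted p = 0.000141). Abcc3 (chr11:94343295-94392997), a pump of the sinusoidal membrane that exports bile acid and drug conjugates to blood, was at 427, 316 and 353 CPM in WT Cre livers and 38, 25.6, 26.2 and 29.1 CPM in KO livers (-3.62 ± 0.16 (SE), edgeR adjusted p = 8.87e-08). Elovl3, a fatty acid elongase, was at 303, 432 and 289.9 CPM in WT Cre livers and 40.6, 35.6, 27.1 and 19.2 CPM in KO livers (-3.48 ± 0.29 (SE), edgeR adjusted p = 3.12e-05). The 3 genes fell in all KO livers, KO 1 included. Mfsd2a, a transporter of lysophosphatidylcholine that carries docosahexaenoic acid, was at 126, 115 and 161 CPM in WT Cre livers and 26.6, 3.16, 1.56 and 5.12 CPM in KO livers, with KO 1 above the others (-3.93 ± 0.87 (SE), edgeR adjusted p = 0.0125, and -5.34 without KO 1). Vnn1, a pantetheinase driven by PPARA, had the same shape at 72.1, 89.7 and 96.5 CPM in WT Cre livers and 27.2, 2.89, 3.96 and 1.84 CPM in KO livers (edgeR adjusted p = 0.0309). The Vnn1 call was lost without WT Cre 1, WT Cre 2, WT Cre 3, KO 2, KO 3 or KO 4 (log2 fold change -3.43 to -2.98, edgeR adjusted p of 0.0612 to 0.0771). Fam13a fell from 29.5 to 1.93 CPM, Ildr2, a membrane protein of the endoplasmic reticulum, from 28.2 to 2.41 CPM, Sult2a8, a bile acid sulfotransferase, from 417 to 43.2 CPM, and Rnf152, a lysosomal ubiquitin ligase, from 21.6 to 3.03 CPM (edgeR adjusted p of 2.41e-05, 0.000332, 0.000441 and 2.77e-05).

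Lower DEGs that are not protein-coding included transcribed relatives of liver genes. Serpina4-ps1, a pseudogene in the serpin cluster, was at 40.0, 133 and 29.1 CPM in WT Cre livers and 3.19, 2.57, 0.843 and 1.19 CPM in KO livers (edgeR adjusted p = 0.00556). BC024386 was at 329, 299.7 and 297 CPM in WT Cre livers and 85.9, 59.9, 45 and 17.3 CPM in KO livers (edgeR adjusted p = 0.00317). Gm32063, Gm4956 and Gm2788 fell from 10.4 to 0.915 CPM, from 20.1 to 2.87 CPM and from 23.8 to 3.52 CPM, and for Gm32063 and Gm4956 KO 1 was the highest of the KO livers. Without WT Cre 3, Gm4956 no longer passed (log2 fold change -2.72, edgeR adjusted p = 0.0529).

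Genes of secreted plasma proteins gave calls in both directions. Over all genes tested 10.6% rose and 5.33% fell, and in the highest decile of MCS level 2.49% rose and 7.26% fell. Of 29 plasma protein genes, 3 rose and 2 fell, and the median log2 fold change was -0.16, with 1 without KO 3 or KO 4 for the lower ones. Trf, transferrin, was at 14762, 15910.4 and 15353 CPM in WT Cre livers and 32733, 39684, 42568 and 40125 CPM in KO livers (1.34 ± 0.14 (SE), edgeR adjusted p = 4.9e-05). Hpx, the heme carrier hemopexin, rose from 2943 to 7897 CPM, and Serping1, the C1 inhibitor, rose from 714 to 1569 CPM (edgeR adjusted p of 8.4e-05 and 5.48e-05). Against these, Fetub, a cystatin-type protease inhibitor, fell from 381 to 76.8 CPM (edgeR adjusted p = 0.000154). Alb itself was at 88625 ± 4285 CPM (SD, n = 3) and 69199.5 ± 6266 CPM (SD, n = 4) and did not pass the test (edgeR adjusted p = 0.067). Among 33 coagulation and complement genes 3 rose and 5 fell, and the lower ones numbered 1 without KO 4. C3, the central complement component, rose from 5786 to 12269 CPM (edgeR adjusted p = 0.00102), while the lectin pathway genes Masp2 and Mbl1 fell from 152 to 71.5 CPM and from 157 to 74 CPM and the fibrinogen chain Fga fell from 3377 to 1580.2 CPM (edgeR adjusted p of 0.00049, 0.000893 and 0.00533). Masp2 lost its call without KO 4 (log2 fold change -0.98, edgeR adjusted p = 0.000417). The Mbl1 call was lost without KO 4 (log2 fold change -0.98, edgeR adjusted p = 0.00134). With scaling to library size only, under which none of the 5 passed the fold limit downward, the log2 fold changes of all genes lay higher by a median of 0.11.

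Hepatocyte transcription factors gave 1 call in each direction. Of 28 factors, 1 rose and 1 fell (2 without WT Cre 3 or KO 1), against 10.6% and 5.33% of all genes tested. By adjusted p alone 4 were higher and 5 lower (15.3% and 13.1% of all genes), and their median log2 fold change was -0.29. The KO range lay wholly under the WT Cre range for 9 factors and over it for 3, against 18.5% and 17.4% of genes. Hnf4a, the nuclear receptor that maintains hepatocyte gene expression, was at 597, 590.4 and 672 CPM in WT Cre livers and 374, 448, 400.4 and 772 CPM in KO livers and did not pass (edgeR adjusted p = 0.371), with KO 4 above all WT Cre livers and KO 1 to 3 below them. Foxa3, a forkhead factor of liver, was at 34.2, 45.8 and 31.7 CPM in WT Cre livers and 55.9, 88.6, 78 and 141 CPM in KO livers (edgeR adjusted p = 0.0168), and Nr1i3, the xenobiotic receptor CAR, fell from 82.1 to 33.6 CPM (edgeR adjusted p = 0.0126). Without WT Cre 1, WT Cre 3 or KO 4, Foxa3 no longer passed (log2 fold change 0.99 to 1.23, edgeR adjusted p of 0.0247 to 0.0669). It was also lost with genes of at least 1 count in the fit.

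Lower DEGs recurred in lists of hepatocyte metabolism. Over all genes 10.6% were higher and 5.33% lower DEGs, and 13.1% were lower by adjusted p alone. In the highest decile of MCS level 2.49% were higher and 7.26% lower DEGs, and 28.5% were lower by adjusted p alone. The lists were not matched for level. Of 31 fatty acid oxidation and ketogenesis genes, 3 rose and 8 fell, and 17 were lower by adjusted p alone (median -0.68). The lower ones numbered 5 without WT Cre 2, WT Cre 3, KO 2, KO 3 or KO 4. Crot, which makes carnitine esters in peroxisomes, fell from 767 to 336 CPM, and Pex11a, a peroxisome proliferation factor, fell from 139 to 47.6 CPM (edgeR adjusted p of 6.87e-05 and 0.000935). Fgf21, a fasting hormone of liver, was at 7.63, 10.3 and 7.9 CPM in WT Cre livers and 1.56, 0.277, 0.379 and 0.153 CPM in KO livers (edgeR adjusted p = 0.00138). Of 17 glucose genes 4 fell and none rose, among them G6pc, the glucose-6-phosphatase that releases glucose, at 608, 352 and 651 CPM in WT Cre livers and 158, 149, 151 and 127 CPM in KO livers (edgeR adjusted p = 7.41e-05), and Pklr, the liver pyruvate kinase (from 501 to 163 CPM, edgeR adjusted p = 0.00672). Of 31 amino acid catabolism enzymes 3 fell, 1 rose and 15 were lower by adjusted p alone. The count of lower enzymes was 5 without KO 1. They included Cdo1, the cysteine dioxygenase (from 1742 to 642 CPM), and Ido2, of the kynurenine route (from 85.5 to 33.9 CPM), while Acmsd, a later enzyme of the same route, rose from 17.7 to 42.1 CPM (edgeR adjusted p of 0.000149, 7.41e-05 and 0.00701).

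Nitrogen and zonated genes followed. Arg1, the last enzyme of the urea cycle, was at 1264, 1119 and 1053 CPM in WT Cre livers and 509, 405, 351 and 348 CPM in KO livers (-1.51 ± 0.14 (SE), edgeR adjusted p = 3.12e-05), and Sds, the serine dehydratase, fell from 153 to 62.4 CPM (edgeR adjusted p = 6.32e-05). These were the 2 lower DEGs among 13 periportal genes, and over all genes tested 5.33% were lower DEGs. Of 18 pericentral genes 3 fell and 1 rose, against 5.33% and 10.6% of all genes tested. Cyp2e1, the ethanol-inducible P450, fell from 3888 to 1691 CPM, Glul, the glutamine synthetase of the last cells before the central vein, fell from 884 to 384 CPM, and Rhbg, an ammonium channel of the same cells, rose from 2.26 to 9.48 CPM (edgeR adjusted p of 0.000123, 0.000534 and 7.19e-05). Glul and Rhbg, which share a zone, thus moved in opposite directions.

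Lipid and bile acid genes were split, and over all genes tested 10.6% were higher and 5.33% lower DEGs. Among 27 lipogenesis and desaturation genes, Scd2 was the single higher DEG and 4 fell, including Elovl3 above, Elovl5, another elongase (from 1372 to 554 CPM), and Me1, the malic enzyme that supplies NADPH (from 657 to 204 CPM, edgeR adjusted p of 0.00191 and 0.0221). Me1 lost its call without WT Cre 1, WT Cre 3, KO 3 or KO 4 (log2 fold change -1.73 to -1.50, edgeR adjusted p of 0.0535 to 0.0699). Leaving out 1 liver gave 7 without KO 1 and 2 without WT Cre 1, KO 3 or KO 4 for the lower genes of this list and 2 without KO 4 for the higher. Of 25 cholesterol synthesis genes 4 fell and none rose, led by Tm7sf2, a sterol reductase (from 150.2 to 59 CPM, edgeR adjusted p = 0.000119), and the count was 7 without WT Cre 3 and 2 without WT Cre 1. Bile acid and organic anion transporters had 2 higher and 5 lower DEGs among 18. The higher ones numbered 1 without WT Cre 1, WT Cre 2, KO 2 or KO 3, and the lower ones 8 without KO 1 and 3 without WT Cre 1, WT Cre 3, KO 2 or KO 4. Besides Abcc3 they included the uptake carriers Slco1b2, at 897, 833 and 962 CPM in WT Cre livers and 385, 383, 313 and 217 CPM in KO livers, and Slc10a1, the sodium-taurocholate cotransporter NTCP, at 829, 652 and 559 CPM in WT Cre livers and 143, 267, 273 and 181 CPM in KO livers (edgeR adjusted p of 0.000149 and 0.000389). Slc27a5, the bile acid CoA ligase, fell from 1004 to 258 CPM (edgeR adjusted p = 8.4e-05). Abcc4, another efflux pump, rose from 13.6 to 30.9 CPM (edgeR adjusted p = 0.00302), and it was at 2.2, 2.1 and 2.79 CPM in MCS livers, lower than in WT Cre livers (2.53 for WT Cre minus MCS, edgeR adjusted p = 0.00117).

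Drug metabolism genes moved both ways. Of 34 cytochrome P450 genes 12 rose and 6 fell, against 10.6% and 5.33% of all genes tested, and the higher ones numbered 7 without WT Cre 1. Cyp3a11, the main CYP3A enzyme of male mouse liver, was at 4659, 4021 and 4874 CPM in WT Cre livers and 10096, 9992, 10825 and 9092 CPM in KO livers (1.15 ± 0.13 (SE), edgeR adjusted p = 7.74e-05). Cyp3a41a, a close relative expressed in females, was at 0.167, 0.0867 and 0.159 CPM in WT Cre livers and 6.39, 38.5, 76.5 and 46.4 CPM in KO livers (edgeR adjusted p = 0.000993). Cyp2c55 rose from 14.2 to 54.1 CPM (edgeR adjusted p = 3.43e-05). Members of such families share sequence, and how reads with several matches were counted is not given in the sources used here, so that single members are uncertain. The promoter windows of Cyp3a11 and Cyp3a41a are shown for their likeness, with the 9 bases CAAAGTCCA in capitals, a form of the element bound by HNF4A. Windows are from the RefSeq table for GRCm38.p6 and read 5′ to 3′ on the strand of the gene.
Cyp3a11 (chr5:145879944-145879973, minus strand): aagagagtacCAAAGTCCAgtgatgcaaag
Cyp3a41a (chr5:145720212-145720241, minus strand): aagagacgacCAAAGTCCAggtgatgcagg
The 9 bases were searched on both strands from 250 bases before to 50 bases after the start of 13195 tested genes with a RefSeq window, and 0.523% held them. They were held by 19 of 1593 higher DEGs (1.19%) and 5 of 715 lower DEGs (0.699%). Conjugation enzymes of the Ugt family had 2 higher and 5 lower DEGs among 19 (higher ones 1 without WT Cre 1 and 0 without WT Cre 2), with Ugt2b1 at 363, 342 and 361 CPM in WT Cre livers and 69.8, 55.7, 46.1 and 56.1 CPM in KO livers (edgeR adjusted p = 2.11e-06). Gstm1, a glutathione transferase, fell against WT Cre livers (from 4212 to 1535 CPM, edgeR adjusted p = 0.000315), but the MCS livers were at 1696, 1667 and 1599 CPM, and against them the log2 fold change was -0.11 (edgeR adjusted p = 0.722).

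Genes that female livers express more rose in these male livers. In male mice, pulsed growth hormone keeps the female program low through STAT5 and BCL6, and CUX2 is a repressor that female livers express. Of 23 female-biased genes 15 rose (9 without WT Cre 1) and 1 fell (2 without KO 1 or KO 3), against 10.6% and 5.33% of all genes, and the median log2 fold change was 2.25, or 1.93 with the genes without WT Cre counts set at their bound. Their summed level was 339 to 713 CPM in WT Cre, 1533 to 2189 CPM in KO and 156 to 274 CPM in MCS livers. The list median in KO livers 1 to 4 was 1.57, 2.08, 2.43 and 1.85 above the WT Cre mean on the log2 scale. Cux2 was at 0.625, 0.347 and 1.15 CPM in WT Cre livers and 20.5, 22.4, 30.4 and 18.2 CPM in KO livers (4.99 ± 0.36 (SE), edgeR adjusted p = 6.48e-06). Trim24, a nuclear receptor cofactor and ubiquitin ligase, was at 21.6, 19.2 and 30.4 CPM in WT Cre livers and 118, 103, 94 and 136 CPM in KO livers (2.25 ± 0.20 (SE), edgeR adjusted p = 2.43e-05).

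Male-biased genes were divided, with 5 higher and 5 lower DEGs among 24, against 10.6% and 5.33% of all genes tested. The higher male-biased ones numbered 8 without KO 1 and 3 without WT Cre 1, WT Cre 3, KO 3 or KO 4. Against MCS livers their median was -1.85, compared with 0.27 against WT Cre livers, where it turned to -0.35 with log2(FPKM + 0.1). Their summed level was 12182 to 16878 CPM in WT Cre, 6414 to 9619 CPM in KO and 27036 to 36043 CPM in MCS livers, so that the sum was lowest in the KO livers. KO 1 differed from the other KO livers, with a list median of -1.04 against 0.39 to 0.59. Cyp2d9 and Cyp4a12a, male-biased P450 enzymes, rose from 786 to 1958 CPM and from 139.8 to 634 CPM (edgeR adjusted p of 0.00024 and 0.00508). The complement gene C6 was at 111, 157 and 90.3 CPM in WT Cre livers and 145, 466, 543 and 646 CPM in KO livers (edgeR adjusted p = 0.0128), and KO 1 lay within the WT Cre range. The C6 call was lost without WT Cre 3 (log2 fold change 1.75, edgeR adjusted p = 0.0505). The major urinary protein (Mup) family, whose products carry pheromones in male urine, had 9 lower and no higher DEGs (1 higher without KO 1) among 22 (median -1.25). Mup3 was at 5449, 5551 and 4612 CPM in WT Cre livers and 679.6, 987, 895 and 731 CPM in KO livers (-2.66 ± 0.16 (SE), edgeR adjusted p = 1.27e-06). Mup17 was at 21.6, 13.2 and 10.8 CPM in WT Cre, 1.04, 2.06, 1.69 and 0.956 CPM in KO and 189, 82.9 and 266 CPM in MCS livers, so that the WT Cre livers already lay below the MCS livers. The Mup genes are nearly identical to each other, and the split of reads among them is uncertain.

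Genes of the fetal liver rose in part. Of 18 fetal and oncofetal genes 8 rose and none fell, against 10.6% and 5.33% of all genes tested. Their median log2 fold change was 0.84, or 0.73 with genes without counts in either group set at their bound. With 1 liver left out, the higher ones numbered 5 without WT Cre 1, WT Cre 2 or WT Cre 3, and the lower ones 1 without WT Cre 3 or KO 1. Besides Igf2, Cdkn1c, an imprinted cell cycle inhibitor, rose from 1.58 to 5.24 CPM, and Gpc3, a heparan sulfate proteoglycan, rose from 0.565 to 3.26 CPM (edgeR adjusted p of 0.000455 and 0.000544). Afp, the fetal albumin relative, was at 1.54, 2.65 and 2.58 CPM in WT Cre livers and 2.22, 1.42, 1.64 and 1.95 CPM in KO livers and did not pass (edgeR adjusted p = 0.395).

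Mitosis genes rose together from a low level. Of 36 mitosis genes 28 rose and none fell, against 10.6% of all genes that rose, and their median log2 fold change was 1.31. The list median in KO livers 1 to 4 was 0.69, 1.23, 1.57 and 1.46 above the WT Cre mean on the log2 scale, with KO 1 the least, and 29 rose and 1 fell without KO 1. Without WT Cre 1 there were 18 higher ones. In the limma fit of log2(FPKM + 1), 3 were DEGs. Markers of immune and stellate cells, given below, were also higher in KO livers, and their part in this rise was not tested. Mki67, the Ki-67 antigen of cycling cells, was at 1.75, 3.08 and 3.41 CPM in WT Cre livers and 5.8, 13.4, 11.9 and 11.6 CPM in KO livers (1.96 ± 0.30 (SE), edgeR adjusted p = 0.000694). Kif23, a kinesin of the central spindle, was at 0.792, 0.694 and 0.715 CPM in WT Cre livers and 2.22, 2.81, 2.95 and 3.06 CPM in KO livers, and Cenpa, the histone H3 variant of centromeres, at 4.71, 5.51 and 5.24 CPM in WT Cre livers and 8.34, 13.6, 13.7 and 11.1 CPM in KO livers (edgeR adjusted p of 0.000344 and 0.000705). DNA replication and S-phase genes had 9 higher and 1 lower DEG (0 without WT Cre 2, WT Cre 3, KO 2 or KO 4) among 34 (median 0.21), and the 2 lists were not tested against each other. Rrm2, a subunit of ribonucleotide reductase, rose from 7.97 to 17.4 CPM, Uhrf1, which recruits the maintenance DNA methyltransferase, rose from 0.622 to 3.27 CPM, and Ccne2, cyclin E2, rose from 1.31 to 3.19 CPM (edgeR adjusted p of 0.00015, 0.000389 and 0.00238).

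The promoters of the listed mitosis genes share letters, a trait of the list that does not depend on the levels in these livers. Many G2 and M phase genes carry a cell cycle homology region, to which the DREAM and MuvB complexes bind, with a CCAAT box for NF-Y upstream. The letters TTTGAA, read on both strands, were found in the promoter windows of 22 of 30 mitosis genes with a RefSeq window (73.3%) and in 13.3% of all windows. CCAAT was found in 22 of them (73.3%) and in 38.2% of all windows. In the S-phase list 3 of 28 held TTTGAA and 17 held CCAAT. Over the DEGs, TTTGAA was held by 16.4% of higher and 16.5% of lower ones, and CCAAT by 36% and 39.6%. Members of the mitosis list that were called and not called were not compared. The windows of the 3 mitosis genes above and of Asf1b are shown with TTTGAA in capitals, 5′ to 3′ on the strand of the gene (GRCm38.p6, RefSeq).
Mki67 (chr7:135716478-135716507, minus strand): ttagcgccagaaTTTGAAccgccgttttgg
Mki67 (chr7:135716460-135716489, minus strand): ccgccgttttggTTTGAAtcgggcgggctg
Kif23 (chr9:61946780-61946809, minus strand): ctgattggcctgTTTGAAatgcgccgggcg
Cenpa (chr5:30666890-30666919, plus strand): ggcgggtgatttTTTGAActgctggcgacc
Asf1b (chr8:83955668-83955697, plus strand): cggagccggctaTTTGAAgggagcgcgctg
Mki67 held the letters in 2 places, and in Kif23 a CCAAT box on the other strand (attgg in its window) stood just before them. A match is a description of letters and not evidence of binding in these livers.

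**Figure D4:**
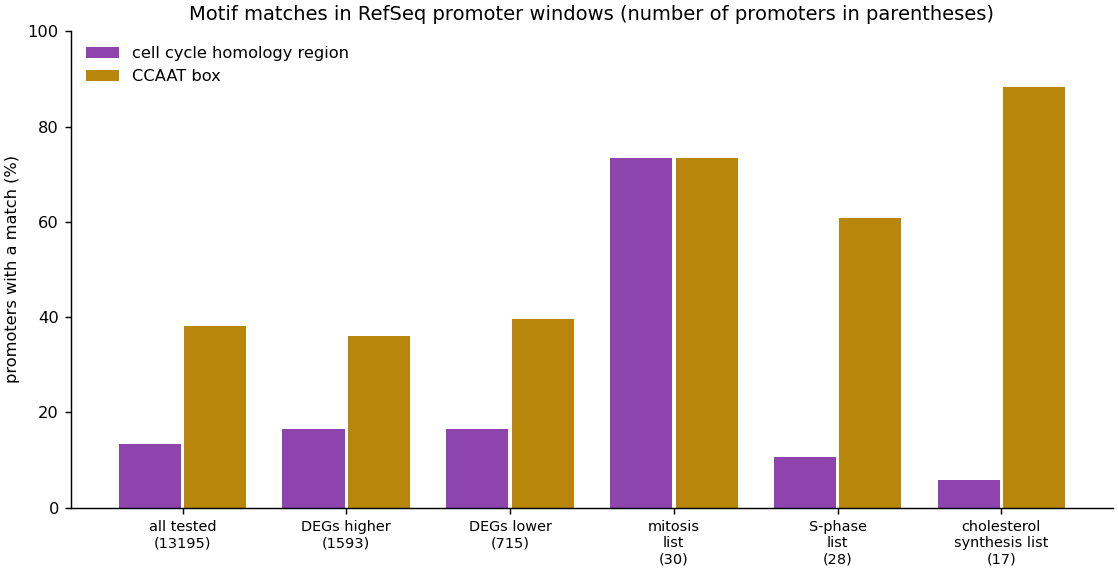
Percentage of RefSeq promoter windows (250 bases before to 50 after the gene start) that hold the letters of the cell cycle homology region (purple) or of the CCAAT box (gold) on either strand, for all tested genes, the DEGs in each direction and 3 gene lists. The mitosis list stands at 73.3% for the cell cycle homology region against 13.3% of all windows, and the cholesterol synthesis list is highest for CCAAT at 88.2%.

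Over all DEGs the promoter windows were poorer in CG dinucleotides than those of the genes tested. The median window held 18 CG dinucleotides for all genes, 10 for higher and 13 for lower DEGs. In the highest decile of MCS level, where depth limits neither direction, the medians were 20 for all genes, 11 for 43 higher and 7 for 123 lower DEGs. The letters TATAAA were held by 10.2%, 27.9% and 18.7% of these 3 sets.

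Stress genes gave calls in both directions. Of 32 p53 targets 6 rose and none fell, and 14 were higher by adjusted p alone, against 10.6% and 15.3% of all genes tested (lower ones 1 without KO 1). Ddit4, an inhibitor of mTORC1, rose from 13.3 to 30.9 CPM, and Ckap2, a spindle protein, rose from 1.33 to 3.83 CPM (edgeR adjusted p of 0.00346 and 0.00522). Cdkn1a, the p21 cell cycle inhibitor, was at 39.3, 70.0 and 55.1 CPM in WT Cre livers and 131, 141, 161 and 146 CPM in KO livers. The KO livers lay above all WT Cre livers, but the gene did not pass (log2 fold change 1.40 ± 0.60 (SE), edgeR adjusted p = 0.119), and the MCS livers spread over 25.7, 18.4 and 118 CPM. Gdf15, a stress hormone, was at 13.3, 13.9 and 14.3 CPM in WT Cre, 21.6, 18.5, 23.4 and 16.4 CPM in KO and 4.76, 5.54 and 4.02 CPM in MCS livers, and the log2 fold change was 0.53 against WT Cre (edgeR adjusted p = 0.0178) and 2.06 against MCS livers (edgeR adjusted p = 5e-06).

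Over all genes tested 10.6% rose and 5.33% fell. Of 24 genes of the ATF4 stress response 6 rose and 3 fell, so that the list had no common direction. The higher ones numbered 3 without KO 2 and 2 without WT Cre 1, WT Cre 2 or WT Cre 3. Atf3, a stress-induced transcription factor, was at 1.29, 1.74 and 1.43 CPM in WT Cre livers and 4.63, 9.73, 9.57 and 7.65 CPM in KO livers (edgeR adjusted p = 0.000168), while Chac1, which degrades glutathione, fell from 2.65 to 0.321 CPM (edgeR adjusted p = 8.1e-05). Among 22 chaperone and XBP1 target genes of the endoplasmic reticulum the single DEG was Pdia6, a protein disulfide isomerase that rose from 297 to 643 CPM (edgeR adjusted p = 0.000706). Without KO 1, Pdia6 no longer passed (log2 fold change 0.99, edgeR adjusted p = 0.000187). With 1 liver left out, the NRF2 targets called higher numbered 3 without WT Cre 3, KO 2 or KO 3, and those called lower 4 without KO 1 and 1 without WT Cre 1, WT Cre 3 or KO 3. Over all livers NRF2 targets had 5 higher and 2 lower DEGs among 26, with Gsta1, a glutathione transferase, at 5.75, 5.47 and 17.2 CPM in WT Cre livers and 56, 24.7, 30.8 and 40.7 CPM in KO livers and at 0.936, 0.804 and 1.06 CPM in MCS livers (edgeR adjusted p = 0.01 against WT Cre). The acute phase list median, as log2 difference from the WT Cre mean, was 0.23, 0.41 and 1.69 in MCS livers 1 to 3. Acute phase genes called higher numbered 10 without MCS 3 and 1 without WT Cre 1, WT Cre 2 or WT Cre 3, and lower ones 2 without WT Cre 2 or KO 4. With all livers they had 3 higher and 4 lower DEGs among 29, in opposite directions for Saa3, an inducible serum amyloid, at 3.13, 6.98 and 4.92 CPM in WT Cre livers and 24.4, 169.5, 109.9 and 84.3 CPM in KO livers, and the fibrinogen chain Fgb, which fell from 2869 to 1355 CPM (edgeR adjusted p of 0.00377 and 0.00715). Fgb lost its call without WT Cre 2 or KO 4 (log2 fold change -0.99 to -0.97, edgeR adjusted p of 0.017 to 0.0337). It was also lost with scaling to library size only.

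Interferon-stimulated genes had 7 higher and 1 lower DEG among 29, against 10.6% higher and 5.33% lower over all genes, with 11 without WT Cre 2 for the higher ones. Zbp1, a sensor of left-handed nucleic acid, was at 7.96, 19.6 and 10.3 CPM in WT Cre livers and 52.4, 64.1, 62.2 and 60.6 CPM in KO livers (edgeR adjusted p = 0.000263), and Ifi27l2a rose from 4.05 to 12.1 CPM (edgeR adjusted p = 0.000115). Ifit1, an RNA-binding interferon gene, fell from 31.2 to 10.4 CPM (edgeR adjusted p = 0.00919), with WT Cre 2 the highest at 52.8 CPM. The Ifit1 call was lost without WT Cre 2 (log2 fold change -0.98, edgeR adjusted p = 0.0135). Of 24 cell death genes 9 rose and 1 fell, with Bak1, a pore-forming BCL2 relative, rising from 10.1 to 22.1 CPM, Pycard, an inflammasome adaptor, rising from 0.899 to 2.45 CPM, and Gsdme, a gasdermin, falling from 13.1 to 5.75 CPM (edgeR adjusted p of 0.000213, 0.00126 and 0.000103).

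Many markers of stellate cells, macrophages and lymphocytes were called higher in KO livers. Of 33 stellate cell and matrix markers 22 rose and none fell (median 1.37), and their summed level was 1853 to 2215 CPM in WT Cre and 2045 to 2866 CPM in KO livers, ranges that overlap and are led by Fn1, which hepatocytes express too. Without KO 1, 24 rose. Col1a1, the main fibrillar collagen chain, was at 5.79, 9.46 and 5.52 CPM in WT Cre livers and 48.8, 62.4, 56.1 and 80.2 CPM in KO livers (3.16 ± 0.24 (SE), edgeR adjusted p = 9.23e-06), and its partner chain Col1a2 was at 10.5, 13.7 and 9.09 CPM in WT Cre livers and 51.1, 58, 56.4 and 82.7 CPM in KO livers (edgeR adjusted p = 5.9e-06). Over the collagen family 16 of 40 genes rose and 2 fell, and over all genes tested 10.6% rose and 5.33% fell. All 4 KO livers lay above the WT Cre livers for both chains, KO 1 as the lowest.

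Of 18 Kupffer cell markers 13 rose, and of 24 markers of monocyte-derived macrophages 21 rose, with none lower in either list, or 1 without WT Cre 3 in the second (medians 1.66 and 2.15). The summed Kupffer markers were at 551 to 694 CPM in WT Cre and 963 to 1738 CPM in KO livers, and those of monocyte-derived macrophages at 179 to 219 and 346 to 689 CPM, without overlap in either list. Adgre1, which codes for F4/80, was at 6.75, 9.02 and 9.57 CPM in WT Cre livers and 17.7, 32.4, 32.7 and 55.8 CPM in KO livers (2.04 ± 0.42 (SE), edgeR adjusted p = 0.00681). C1qa and Cd5l, products of resident macrophages, rose from 37.2 to 115 CPM and from 52.5 to 187 CPM, and Ccr2, the chemokine receptor of recruited monocytes, was at 1.29, 1.87 and 1.47 CPM in WT Cre livers and 4.37, 12.4, 7.67 and 9.52 CPM in KO livers (edgeR adjusted p of 0.000325, 0.000941 and 0.000241). MHC class II genes, which present antigen, had 11 of 14 members higher, among them H2-DMa (from 3.08 to 11.8 CPM, edgeR adjusted p = 7.07e-05). Chemokine genes had 13 higher and 3 lower DEGs among 26, and over all genes tested 10.6% were higher and 5.33% lower DEGs.

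Lymphocyte markers parted KO 1 from the other KO livers. Of 24 T and NK cell markers 17 rose (median 1.81), and the list median in KO livers 1 to 4 was 0.09, 2.03, 1.45 and 2.01 above the WT Cre mean on the log2 scale. Their summed level was 12.5 to 18.4 CPM in WT Cre and 15.8 to 61 CPM in KO livers, with KO 1 in the WT Cre range, and 19 rose without KO 1. The count of higher ones was 10 without WT Cre 2 or KO 2, 8 without WT Cre 3 and 7 without WT Cre 1. Cd4 was at 0.5, 0.564 and 0.397 CPM in WT Cre livers and 1.95, 7, 4.3 and 5.32 CPM in KO livers (edgeR adjusted p = 0.00016). B and plasma cell markers had 8 higher DEGs of 19 (5 without WT Cre 3 and 4 without WT Cre 1 or WT Cre 2), and KO 1 had a list median of -0.03. Of 164 immunoglobulin gene segments 91 rose and none fell, against 10.6% and 5.33% of all genes tested. The higher segments numbered 58 without KO 2, 21 without WT Cre 1 or WT Cre 2 and 16 without WT Cre 3, and the lower ones 1 without WT Cre 3 or KO 1. Their summed level was 73.9, 71 and 41.4 CPM in WT Cre livers and 147, 1579.7, 1212 and 843 CPM in KO livers. Ighg1 and Ighg2c, constant regions of IgG, were at 0.13, 77.3, 93.6 and 24.5 CPM and at 0.326, 375, 218 and 204 CPM in KO livers, while Ighg1 had no count in any WT Cre library and was at least 392-fold higher against a floor of 3 counts per library. The variable segment Ighv1-80 was at 0.0652, 11.7, 22.5 and 16.2 CPM, also with no WT Cre count (at least 101-fold higher). Mzb1, a chaperone of antibody-secreting cells, was at 0.0834, 0.0434 and 0.198 CPM in WT Cre livers and 0.0652, 3.68, 2.53 and 3.14 CPM in KO livers (edgeR adjusted p = 0.00985). Without WT Cre 1, WT Cre 2, WT Cre 3, KO 2, KO 3 or KO 4, Ighg1 no longer passed (edgeR adjusted p of 0.0617 to 0.0697). Ighv1-80 lost its call without WT Cre 1, WT Cre 2, WT Cre 3, MCS 3 or KO 4 (edgeR adjusted p of 0.0536 to 0.0698). In the voom fit the calls of Ighg1, Ighg2c, Ighv1-80 and Mzb1 were lost. Ighg1 and Ighv1-80 were also lost with genes of at least 1 count in the fit and with the KO and WT Cre livers alone. The segments share sequence, and counts of single ones are uncertain.

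Markers of further cell types gave fewer calls with all livers in the fit. Sinusoidal endothelial markers had 1 DEG of 24, Plvap, a diaphragm protein of fenestrae and capillaries, which rose from 37.8 to 76.3 CPM (edgeR adjusted p = 0.000259). The Plvap call was lost without WT Cre 3, KO 3 or KO 4 (log2 fold change 0.94 to 0.98, edgeR adjusted p of 0.000339 to 0.0027). Neutrophil markers had 3 higher DEGs of 12 and a median log2 fold change of 1.70, and 6 of them were higher in all KO than in all WT Cre livers (17.4% of all genes). The count of DEGs was 8 without MCS 3, 5 without KO 1, 1 without KO 3 and 0 without WT Cre 1 or WT Cre 3, with S100a9 at 0.875, 1.26 and 1.15 CPM in WT Cre livers and 2.22, 8.03, 5.48 and 3.82 CPM in KO livers (edgeR adjusted p = 0.0269). Without WT Cre 1, WT Cre 2, WT Cre 3, KO 2 or KO 3, S100a9 no longer passed (log2 fold change 1.82 to 2.27, edgeR adjusted p of 0.0542 to 0.0944). Red cell markers had no DEG among 8 by edgeR or DESeq2, with 1 at an unadjusted p under 0.05, and 2 lower ones without KO 1. Their summed level was 126 to 275 CPM in WT Cre and 52.6 to 221 CPM in KO livers. Biliary and ductular markers had 7 higher and 1 lower DEG among 23, against 10.6% and 5.33% of all genes, and the lower ones numbered 2 without KO 1 and 0 without WT Cre 1, WT Cre 3 or KO 4. The defining biliary keratin Krt19 was at 1.13, 1.04 and 2.82 CPM in WT Cre livers and 0.912, 0.514, 1.1 and 1.34 CPM in KO livers and did not pass (edgeR adjusted p = 0.155), whereas Krt23, a keratin of stressed liver, rose from 0.886 to 10.2 CPM (edgeR adjusted p = 3.78e-05), and Cdh1, also on this list, is given above. The part of a changed cell make-up in the results of this comparison was not tested.

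**Figure D5:**
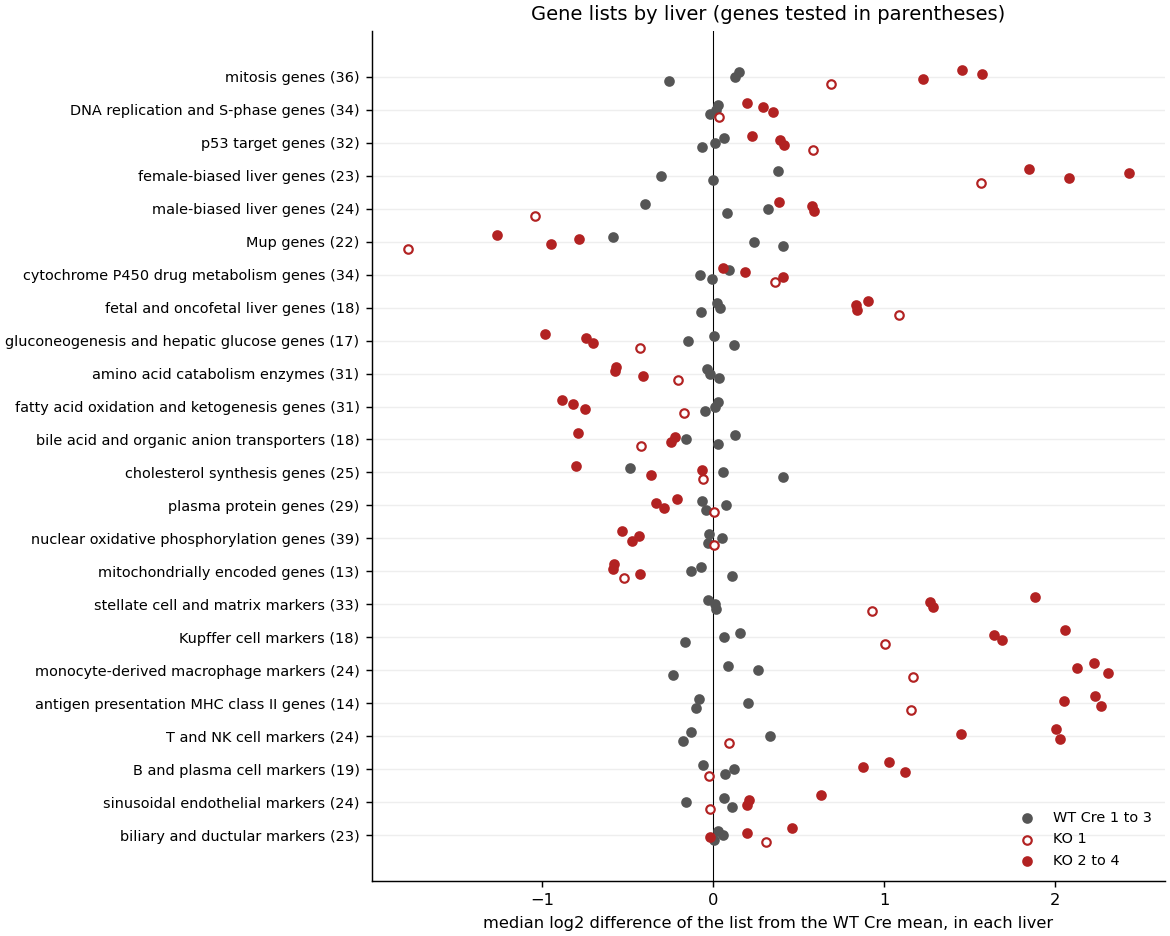
Median log2 difference from the WT Cre mean of each gene list (rows, with the number of genes tested) in each liver, with WT Cre livers as grey points, KO 2 to 4 as filled and KO 1 as open red circles. Mitosis, female-biased, stellate, macrophage and MHC class II lists are above 0 in all 4 KO livers; KO 1 lies near the WT Cre livers for the T and NK cell and B and plasma cell lists and at -1.04 for male-biased genes.

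Lists of the general cell machinery held few genes past the fold limit of the DEG rule, apart from the transcripts encoded in mitochondria. Over all genes tested 10.6% were higher and 5.33% lower DEGs, and 15.3% and 13.1% were higher and lower by adjusted p alone. RNA splicing genes had no DEG among 45 by edgeR or DESeq2, with 10 at an unadjusted p under 0.05, and 2 were higher and 2 lower by adjusted p alone. Nuclear transport genes had 1 DEG among 45, the nucleoporin Nup210, at 16.3, 13.4 and 11.9 CPM in WT Cre, 3.58, 7.63, 6.45 and 4.7 CPM in KO and 5.74, 7.63 and 6.93 CPM in MCS livers (edgeR adjusted p = 0.00134 against WT Cre). The MCS livers lay at the KO level, and against them edgeR's adjusted p was 0.416. Proteasome subunits had no DEG among 31 by edgeR or DESeq2, with 17 at an unadjusted p under 0.05 and 9 lower by adjusted p alone (median -0.23). Nuclear genes of oxidative phosphorylation had 2 lower DEGs among 39 and 16 lower by adjusted p alone (median -0.33). The lower DEGs numbered 1 without WT Cre 2, WT Cre 3, KO 2, KO 3 or KO 4. Cox7b, a subunit of cytochrome c oxidase, was at 183, 189 and 171 CPM in WT Cre livers and 107, 73, 73.5 and 68.9 CPM in KO livers (edgeR adjusted p = 0.000169), and KO 1 was the highest KO liver. Transcripts encoded in mitochondria took 5.08% ± 0.105 (SD, n = 4) of counts in KO livers and 6.05% ± 0.569 (SD, n = 3) in WT Cre livers (exact permutation p = 0.0286, the smallest allowed), and 5 of 13 were lower DEGs (3 without KO 3), 10 were lower by adjusted p alone and the median log2 fold change was -0.50. Over the 21 alternative settings 0 to 5 of these 13 were lower DEGs, and the median ran from -0.54 to -0.24. Cytosolic ribosomal protein genes had 1 DEG among 86, Rpl3l, with 4 counts over the WT Cre and 19 over the KO libraries, a ratio of 3.79 (95% exact interval 1.26 to 15.3). Its call was lost without each WT Cre liver and in 16 of 19 alternative settings in all.

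Zinc finger (Zfp) genes, many of which repress transposons and other genes through KAP1, had 16 higher and 22 lower DEGs among 370, and 34 higher and 74 lower by adjusted p alone (median -0.13). Over all genes 10.6% were higher and 5.33% lower DEGs, and 15.3% and 13.1% by adjusted p alone. Zfp354a was at 4.54, 3.64 and 4.37 CPM in WT Cre livers and 0.847, 0.988, 0.843 and 0.535 CPM in KO livers (-2.38 ± 0.22 (SE), edgeR adjusted p = 2.76e-05), and Zfp2 at 5.84, 6.59 and 6.19 CPM in WT Cre livers and 2.48, 2.1, 2.11 and 2.1 CPM in KO livers (edgeR adjusted p = 4.55e-05). Solute carriers had 51 higher and 21 lower DEGs among 299, between Slc5a5 at the top and carriers such as Slc16a11, a monocarboxylate carrier relative, which fell from 10.2 to 1.96 CPM (edgeR adjusted p = 2.94e-05).

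Against MCS livers 3926 genes were DEGs (17.5%), and 4 genes were DEGs of opposite sign against WT Cre and against MCS livers. Both comparisons use the same KO livers. Slc22a26, an organic anion transporter relative, was at 5.75, 4.42 and 6.43 CPM in WT Cre, 3.65, 1.34, 1.35 and 0.956 CPM in KO and 0.692, 0.268 and 0.335 CPM in MCS livers, so that it was lower than in WT Cre (-1.65, edgeR adjusted p = 0.00965) and higher than in MCS livers (1.98, edgeR adjusted p = 0.0112). Fbxo44, an F-box protein, was at 3.25, 2.82 and 2.54 CPM in WT Cre, 0.13, 0.395, 0.632 and 0.535 CPM in KO and 0.163, 0.134 and 0.168 CPM in MCS livers, with KO 1 just below the MCS range (edgeR adjusted p of 0.000147 and 0.0286). Gm43305 was at 3.54, 5.34 and 5.12 CPM in WT Cre, 15, 31.9, 18.4 and 50.6 CPM in KO and 101, 101 and 211 CPM in MCS livers, higher than the first and lower than the second (edgeR adjusted p of 0.00553 and 0.00554). E030018B13Rik had the same order at lower levels, with 7 counts in the WT Cre libraries and 0.261, 0.237, 0.295 and 0.612 CPM in KO livers. E030018B13Rik lost its call without WT Cre 1, WT Cre 2, WT Cre 3 or KO 4 (log2 fold change 1.38 to 2.07, edgeR adjusted p of 0.0641 to 0.13). It was also lost in the voom and FPKM fits. The rule that picked these 4 genes by itself places the KO mean between those of the 2 control groups. Single KO livers also lay between the groups, except KO 1 in Fbxo44, and the cause of this order was not tested.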

How the data were processed

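Poly(A) RNA from whole livers was sequenced from libraries of a directional kit. For the deposited counts, the authors used Trim Galore for adaptors, STAR for alignment to mm10 and, by their methods, HOMER for counts per gene, while the submitters' processing notes list HTSeq and Cufflinks, so that the counting tool is not settled. A second deposited table holds FPKM by the authors, whose blank cells were read as 0, and it was used only for alternative fits. Total counts ran from 14998426 to 26096141 per library, and no value column was left unmapped. No pair of libraries of the same group agreed within counting noise (chi-square per degree of freedom of at least 10.3). Pairs across groups were not examined. Nothing states that livers of a group came from separate litters or days, so that p-values measure the spread between these livers.

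Counts of 22449 genes were fitted in R 4.3.3 with edgeR 4.0.16 (robust quasi-likelihood F test, TMM, 3 groups, 10 livers), and p-values were adjusted by Benjamini-Hochberg over all genes. All adjusted p-values are from this test unless another tool is named, and standard errors are the fold change over the square root of F. Levels are CPM with TMM, and folds against a group without counts used a floor of 3 counts per library. Intervals of count ratios are exact at 95% and cover counting error only. The fit was tested on simulated data. Alternatives were DESeq2 1.42.0, limma-voom and limma 3.58.1 on log2(FPKM + 1) and log2(FPKM + 0.1), other scalings and filters, a replicate block and each liver left out. Same-numbered livers did not deviate together (r of 0.0187, 0.0362 and -0.0387).

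The 44 gene lists, 10 gene families and tests were chosen with earlier results of these data known. Named were H3f3a, H3f3b and Hira, the 10 highest and 10 lowest fold changes of protein-coding DEGs with livers of the groups apart and at least 10 CPM in the higher group, 5 in each direction of other gene types, up to 3 members of a list by smallest adjusted p with 1 of the other direction, 9 preset genes, and genes of opposite direction against both controls. Not every gene so named is printed. Promoter windows of 300 bases are from RefSeq (GRCm38.p6), and gene coordinates from GENCODE M21.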

Additional observations from a re-analysis of the deposited data

Results flagged for a closer look

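In a few genes 1 KO liver lay far from the other 3, by Dixon's gap test for 4 samples, which chance meets in about 1 of 20 groups. Of 137 values examined over the text, 12 met it, 11 of them through KO 1. Among lower DEGs, KO 1 was the highest KO liver for Mfsd2a at 26.6 CPM, Vnn1 at 27.2 CPM, Fam13a at 3.58 CPM, Fgf21 at 1.56 CPM and Me1 at 424 CPM. The same held for Slc22a26 at 3.65 CPM, Cox7b at 107 CPM, Zfp2 at 2.48 CPM, and the non-coding Gm32063 at 2.15 CPM and Gm4956 at 8.01 CPM. In all of these KO 1 lay on the side of the WT Cre livers. The higher DEG Ccne2 was lowest in KO 1 at 1.95 CPM, also towards the WT Cre livers. E030018B13Rik was highest in KO 4, at 0.612 CPM, away from the WT Cre livers.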

How the results depend on the processing

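H3f3a and H3f3b kept their direction and their call under every alternative run. DEG totals of 3136 to 3604 were found with DESeq2, voom, edgeR with other scalings or filters, and the KO and WT Cre livers alone, and of 2725 to 4367 when 1 liver was left out. Fits of FPKM, in which values, test and scale differ together, gave fewer calls, and the cause was not tested. With log2(FPKM + 1) there were 1131 DEGs, 768 higher and 363 lower, and with a filter of at least 1 FPKM in 3 livers 1155, 787 higher and 368 lower, with 1897 lower by adjusted p alone. With log2(FPKM + 0.1) there were 2604 DEGs, and 46 of the reported calls had the opposite sign, against 62 with log2(FPKM + 1). The median of male-biased genes became -0.35 there, and 3 mitosis genes were DEGs with log2(FPKM + 1). Leaving out 1 liver gave 2295 to 4316 genes higher and 1927 to 3845 lower by adjusted p alone, with the fewest without WT Cre 2 or WT Cre 3. The difference in the Alb percentage then ran from -1.54 to -1.2 and that of mitochondrially encoded transcripts from -1.17 to -0.646 percentage points, with exact permutation p of 0.1 or 0.0667, the smallest these designs allow. The share of the 50 most abundant genes differed by -0.353 percentage points, and that of the 10 most abundant by 0.622 (exact permutation p = 0.229), so that its direction depended on the number of genes taken, and the cause was not tested. Same-numbered livers were not paired by the labels, and with a replicate block there were 3084 DEGs, 2103 higher and 981 lower, of which 2843 were among the 3566 reported. Counting error limits the low deciles, in which a gene at 0 counts in the controls cannot fall.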

Other observations

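Beyond the groups above, tubulin and cytoskeleton genes, many of which form microtubules, had 7 higher and 0 lower DEGs among 26, with a median log2 fold change of 0.81, and 12 rose without KO 1. Keratin genes had 5 higher and 1 lower DEG among 11, and over all genes tested 10.6% were higher and 5.33% lower DEGs. Serpina genes, whose products inhibit proteases in plasma, had 3 higher and 2 lower DEGs among 21 (higher ones 5 without KO 1, lower ones 1 without WT Cre 2, KO 3 or KO 4). Bile acid synthesis genes had 3 higher and 3 lower DEGs among 16 (higher ones 1 without WT Cre 1 or WT Cre 3), and T cell receptor segments had 3 higher and none lower among 11 (1 without WT Cre 1, WT Cre 3, KO 2 or KO 4).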
